A study of Mus musculus with 89 samples.

Results

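Formative and primed state genes are linked to the exit of mouse embryonic stem cells from the naive ground state. That exit leads towards the epiblast of the implanted embryo. The 9 genes described here, Fgf5, Otx2, Pou3f1, Zic2, Zic5, Sox3, Sall2, Foxd3 and Grhl2, were listed by name and taken from the RNA-seq count table by their symbol. All 9 were present among its 26276 rows with a gene symbol. The libraries came from V6.5 cells, a mouse embryonic stem cell line whose H2afz gene, encoding the histone variant H2A.Z.1, carries an FKBP-V degradation tag. Control and dTAG groups share that tag and the same medium, LIF with the MEK inhibitor PD0325901 and the GSK3 inhibitor CHIR99021, and the dTAG group also received the degrader, which directs the tagged protein to the proteasome. Each group had 3 RNA libraries. How long the dTAG cells were treated, and whether the tagged line is a single clone, is not given in the sources used here.

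Naive cells in this medium are kept from receiving the FGF-ERK signal that starts the exit from the ground state. When that block is lifted, Otx2 and Pou3f1 are among the transcription factors that come up early, Otx2 recruits the pluripotency factor Oct4 to enhancers used after implantation, and Fgf5 is the marker most often read out for the new state. Several of the same genes serve again later: Sox3, Zic2, Zic5, Pou3f1, Otx2 and Sall2 in neural tissue, Foxd3 in neural crest and Grhl2 in epithelia.

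The depth of the libraries was very unequal. Counts in named genes ran from 14091745 to 15652795 in the controls and came to 12907095, 2131648 and 1812405 in dTAG replicates 1, 2 and 3. Levels are given as counts per 1000000 counts in named genes (CPM), on which a count of 0 would allow up to 0.192 to 0.213 CPM among controls and, with dTAG, 0.232, 1.41 and 1.66 CPM. Every member had a count in all 6 libraries. dTAG replicates 2 and 3 stood apart from the rest. Mitochondrial rRNA took 6.84% to 7.13% of named counts in the controls and 6.94%, 4.94% and 0.17% in dTAG replicates 1, 2 and 3. Olfactory and vomeronasal receptor genes, 1462 rows that stem cells do not use, averaged 0.036 to 0.0431 CPM among controls, against 0.113, 1.67 and 5.66 CPM with dTAG. A count was present for 10.9% to 18.2% of these receptor genes among controls, and for 23.5%, 71.5% and 97.0% with dTAG. The median over all named genes moved with them, from 2.17 to 2.27 CPM in the controls to 2.79, 11.7 and 23.2 CPM. All 10 embryonic stem cell markers were present in every library. In dTAG replicates 2 and 3, 8 of the 10, among them the most abundant, Dppa5a, Tdgf1 and Pou5f1, were below every control. Of all genes with a count, 16% and 15.9% were. The other 2 markers were above every control in both, where 67.1% and 79.3% of all genes were. The summed level of the 10 markers was 2386 to 2477 CPM in the controls, and 2535, 1510 and 495 CPM with dTAG. CPM is a share of the counts, so counts gained by other genes also lower these values. In a bulk library, that effect, fewer cells of a type and less RNA per cell cannot be told apart.

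Promoter sequences are shown for 3 members that differ in how they behaved across the libraries: Zic5, the single member whose level was lower in dTAG replicates 2 and 3 than in every control, and Fgf5 and Foxd3, which were above every control in the same libraries and not in dTAG replicate 1. Each is the 250 bases before the RefSeq start on build GRCm38.p6, on the gene's strand, with CpG dinucleotides in capitals. Their positions are chr14:122465659-122465908 (minus strand) for Zic5, chr5:98253934-98254183 (plus strand) for Fgf5 and chr4:99656049-99656298 (plus strand) for Foxd3.
Zic5: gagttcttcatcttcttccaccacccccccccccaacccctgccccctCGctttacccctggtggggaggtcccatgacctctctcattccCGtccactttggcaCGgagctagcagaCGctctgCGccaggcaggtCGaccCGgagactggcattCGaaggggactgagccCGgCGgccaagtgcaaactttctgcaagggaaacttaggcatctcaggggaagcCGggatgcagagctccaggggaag
Fgf5: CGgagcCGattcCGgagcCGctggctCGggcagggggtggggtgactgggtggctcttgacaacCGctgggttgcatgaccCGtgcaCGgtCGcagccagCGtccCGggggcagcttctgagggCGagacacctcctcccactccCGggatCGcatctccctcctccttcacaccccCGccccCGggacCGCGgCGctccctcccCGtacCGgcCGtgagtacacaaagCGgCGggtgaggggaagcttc
Foxd3: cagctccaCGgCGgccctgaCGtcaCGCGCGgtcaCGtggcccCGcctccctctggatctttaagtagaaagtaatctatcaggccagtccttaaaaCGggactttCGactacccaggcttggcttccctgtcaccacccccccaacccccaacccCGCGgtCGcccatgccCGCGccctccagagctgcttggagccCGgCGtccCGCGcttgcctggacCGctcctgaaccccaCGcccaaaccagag
The Fgf5 window held 24 CpG and the Foxd3 window 21, numbers reached by 12.0% and 16.3% of the 32851 promoter windows of this length. The Zic5 window held 11 CpG, which 35.6% of windows reached, and the median window held 6. Of 4 motifs searched on both strands, the TATA box TATAAA, the CCAAT box CCAAT, the GC box GGGCGG and TAATCC, which OTX homeodomains recognise, only GGGCGG occurred in these windows, in Fgf5. These motifs are in 12.4%, 33.8%, 32.7% and 6.25% of all windows, so single matches are frequent. RefSeq windows were matched for 5 of the 9 members. The 4 alternative starts of Otx2 had 6 to 14 CpG a window, with the TATA, CCAAT and OTX motifs before 1 start each, and the 2 starts of Sall2 had 6 and 0 CpG, the latter with both a TATA and a CCAAT box. Pou3f1, Zic2, Sox3 and Grhl2 are named only.

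In the controls and dTAG replicate 1 Zic5 was the highest of the 9 genes. The other 8 had control means from 0.538 CPM (Otx2) to 18.4 CPM (Zic2). The median over all named genes was 2.17 to 2.27 CPM in the controls. Of the summed level of the 9 genes, which was 114 to 129.6 CPM in the controls and 135 CPM in dTAG replicate 1, Zic5 alone made up 62.7% to 66.3% and 60.01%. In dTAG replicates 2 and 3 the sum was 221 and 584 CPM, and Zic5 made up 12.5% and 10.0% of it. The other 8 genes together stood at 40.2 to 46.8 CPM among controls, against 54.0, 194 and 526 CPM with dTAG. In each of dTAG replicates 2 and 3, 8 of 9 members were above every control, where 67.1% and 79.3% of all genes with a count were. In dTAG replicate 1, 4 of 9 were, against 31.9% of all genes. All 3 dTAG libraries were above every control for 4 of 9 members, where 23.2% of all genes with a count were.

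**Figure D1:**
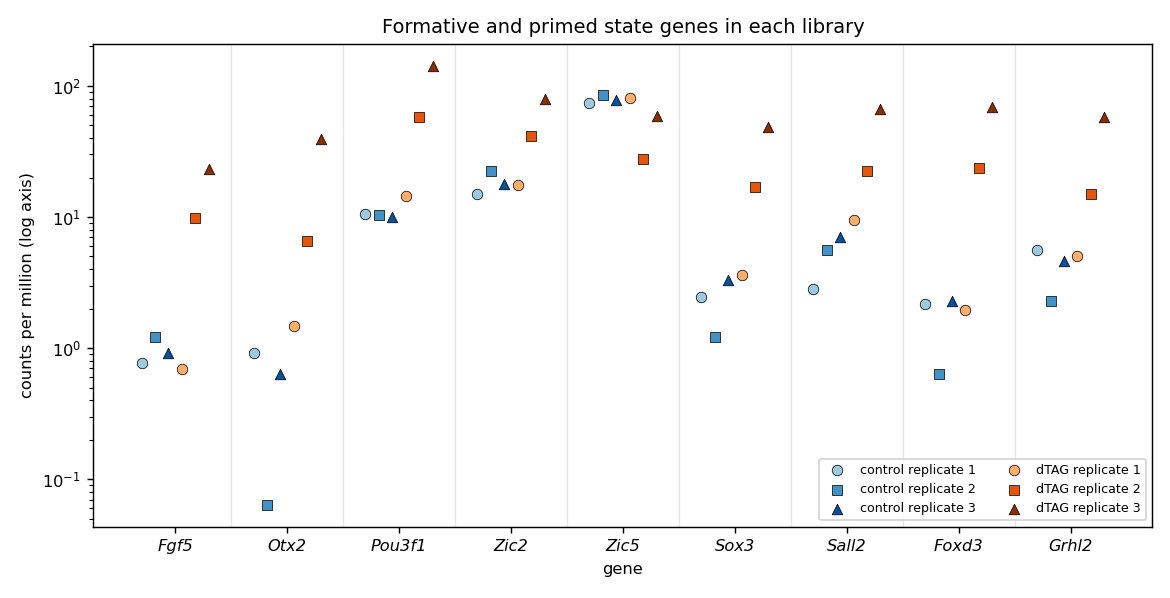
Level of each of the 9 genes in each library, in CPM on a log axis; blue points are the 3 controls, orange to brown the 3 dTAG libraries, and the marker shape gives the replicate number. dTAG replicates 2 and 3 lie above the 3 controls for 8 genes and below them for Zic5, while dTAG replicate 1 lies with or close to the controls.

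Over all 6 libraries none of the 9 genes passed the test. At an adjusted p under 0.05, 0 of 9 members and 0 of 18116 tested genes (0%) were called (edgeR quasi-likelihood test, two-sided, Benjamini-Hochberg adjustment over all tested genes). At an unadjusted p under 0.05, 6 of 9 members passed, where 23.2% of all tested genes did. The fitted log2 fold change was positive for 8 members and -1.05 for Zic5, with a median of 1.64 over the 9, against 0.16 over all tested genes. That reference depends on the scaling, the filter and the tool. The members' median was 2.78 and that of all genes 1.11 with library totals in place of TMM factors, 1.38 and 1.02 without the filter on low counts, and 1.58 and 1.24 in DESeq2. Relative to the median of all genes, 8 members were positive and Zic5 negative under both scalings, while Zic2 was also negative without the filter and in DESeq2. Without dTAG replicate 1, 8 of 9 members were called, where 59.8% of 22093 tested genes were: 7 higher, where 40% were called higher, and Zic5 lower, where 19.8% were. That result rests on dTAG replicates 2 and 3 alone. DESeq2 on all 6 libraries called 4 of 9, all higher, where it called 19.8% of 25668 genes higher and 0.0623% lower. No member was called by limma-voom (0% of genes; at an unadjusted p under 0.05, 2 of 9 members and 9.94% of genes), by edgeR without the filter on low counts (5.45%, all higher) or by edgeR with the replicate number as a block (0.0718%, all higher).

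Fgf5 encodes the secreted growth factor that marks the early post-implantation epiblast, and lies at chr5:98254184-98277033 (RefSeq, GRCm38.p6, as for all positions here). Its level was 0.772, 1.21 and 0.923 CPM in control replicates 1, 2 and 3, from 11, 19 and 13 counts. In dTAG replicates 1, 2 and 3 it was 0.697, 9.85 and 23.2 CPM, from 9, 21 and 42 counts. dTAG replicate 1 was thus just under the lowest control, and the other dTAG libraries were above the highest. Fitted to all libraries, its log2 fold change came to 2.28 (SE 0.99, edgeR adjusted p = 0.216). Against dTAG replicate 1 alone it was -0.56 (SE 1.72, edgeR adjusted p = 0.998), the opposite sign, and without that library it was 2.53 (SE 0.77, edgeR adjusted p = 0.0159). Fgf4, the related ligand that naive cells make themselves, had 226 to 249 CPM among controls, against 237, 147 and 53.0 CPM with dTAG. In dTAG replicates 2 and 3 Fgf4 was therefore below every control and Fgf5 above. Fgf4 was also far more abundant than Fgf5 in the controls. The mean of the receptor genes that stem cells do not use was higher in these libraries too, at 1.67 and 5.66 CPM. Whether the contrast follows the state of the cells or the control level was not tested.

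Otx2, a homeobox factor of the exit from the naive state and of the forebrain at chr14:48656781-48667644, had the fewest control counts of the 9. It stood at 0.913, 0.0639 and 0.639 CPM in the controls, from 13, 1 and 9 counts. The single count of control replicate 2 corresponds to an exact Poisson 95% interval of 0.00162 to 0.356 CPM, below the intervals of control replicate 1 (0.486 to 1.56 CPM) and dTAG replicate 1 (0.886 to 2.3 CPM) and overlapping that of control replicate 3 (0.292 to 1.21 CPM). The dTAG libraries had 1.47, 6.57 and 39.2 CPM, from 19, 14 and 71 counts, so all 3 were above every control. Its log2 fold change was 3.51 (SE 1.18, edgeR adjusted p = 0.129), the highest among the members, and 1.38 (SE 1.78, edgeR adjusted p = 0.992) against dTAG replicate 1 alone. Without dTAG replicate 1 it was 3.69 (SE 0.97, edgeR adjusted p = 0.00802). Poisson intervals here cover counting error only.

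Pou3f1 encodes the POU-domain factor also called Oct6, which appears in epiblast and again in neural cells, and lies at chr4:124657646-124660655. Its controls were the tightest of the set, at 10.5, 10.4 and 10.0 CPM from 141 to 163 counts each. dTAG replicate 1 had 14.3 CPM (185 counts, Poisson 95% interval 12.3 to 16.6 CPM), an interval that lies above those of all 3 controls, whose upper ends were 11.8 to 12.3 CPM. dTAG replicates 2 and 3 had 57.7 and 142 CPM, from 123 and 257 counts. All dTAG libraries were thus above every control, as they were for 23.2% of all genes with a count. At a log2 fold change of 1.64 the SE was 0.47 and the edgeR adjusted p 0.0943, the smallest of the set, and against dTAG replicate 1 alone it was 0.39 (SE 0.38, edgeR adjusted p = 0.987). Without dTAG replicate 1 it was 1.73 (SE 0.29, edgeR adjusted p = 0.000945).

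Sox3, a SoxB1 factor of epiblast and neural progenitors at chrX:60891366-60893430, had 2.46, 1.21 and 3.34 CPM in the controls, from 35, 19 and 47 counts. Its dTAG libraries stood at 3.64, 16.9 and 48.6 CPM, from 47, 36 and 88 counts, all above every control, though dTAG replicate 1 only by a margin smaller than the spread of the controls. For all libraries the log2 fold change was 2.09 (SE 0.73, edgeR adjusted p = 0.136) and, without dTAG replicate 1, 2.22 (SE 0.56, edgeR adjusted p = 0.00634). Sox2, its SoxB1 relative and a core pluripotency factor, had 176 to 190 CPM among controls, against 199, 129 and 53.5 CPM with dTAG. As with Fgf4 and Fgf5, the relative with the higher control level lay below every control in dTAG replicates 2 and 3, and the scarcer one above. Control level and use by naive cells go together here, so the contrast does not separate them. Sall4, higher in the controls than Sall2, also lay below every control in both libraries. Pou3f3, Grhl3, Foxd1 and Crx, higher in the controls than Pou3f1, Grhl2, Foxd3 and Otx2, lay above every control in both.

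Sall2, a spalt-type zinc finger factor at chr14:52311177-52328670, had 2.81, 5.62 and 7.1 CPM in the controls, from 40, 88 and 100 counts. Control replicate 1 was low: its Poisson 95% interval of 2.01 to 3.82 CPM did not reach those of the other controls. The dTAG libraries had 9.45, 22.5 and 66.2 CPM, from 122, 48 and 120 counts, all above every control. Its fold change on the log2 scale was 1.52 (SE 0.54, edgeR adjusted p = 0.144), and 0.77 (SE 0.51, edgeR adjusted p = 0.974) against dTAG replicate 1 alone. Without dTAG replicate 1 it was 1.49 (SE 0.46, edgeR adjusted p = 0.0163). Sall4, the spalt factor of the pluripotency core, had 219 to 259.5 CPM among controls, against 232, 176 and 98.2 CPM with dTAG.

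Foxd3, a forkhead factor that stem cells need to maintain themselves and that later specifies neural crest, lies at chr4:99656299-99658671. It had 2.18, 0.639 and 2.27 CPM in the controls, from 31, 10 and 32 counts. dTAG replicate 1, at 1.94 CPM from 25 counts, lay within the controls, and dTAG replicates 2 and 3 were above them at 23.5 and 69.5 CPM, from 50 and 126 counts. The fitted difference on the log2 scale was 2.95 (SE 0.94, edgeR adjusted p = 0.117), against 0.12 (SE 1.11, edgeR adjusted p = 0.999) for dTAG replicate 1 alone and 3.19 (SE 0.55, edgeR adjusted p = 0.00101) without it.

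Grhl2, a grainyhead-type factor that opens epithelial enhancers, lies at chr15:37232821-37363569. It had 5.62, 2.3 and 4.61 CPM in the controls, from 80, 36 and 65 counts. dTAG replicate 1 was again within the controls, at 5.04 CPM from 65 counts, and dTAG replicates 2 and 3 were above them at 15.0 and 57.4 CPM, from 32 and 104 counts. On the log2 scale the fold change was 1.41 (SE 0.64, edgeR adjusted p = 0.234), and 1.49 (SE 0.50, edgeR adjusted p = 0.0236) without dTAG replicate 1. Epithelial markers did not all stand on the same side as Grhl2. Of 11, 5 and 8 were above every control in dTAG replicates 2 and 3, where 67.1% and 79.3% of all genes were. The most abundant was Cdh1, the epithelial cadherin that stem cells also use, below every control in each dTAG library, with 305 to 360.0 CPM among controls, against 304, 256 and 61.8 CPM with dTAG.

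The controls did not differ from each other in the same way for every member. Control replicate 2 was the lowest control for Otx2, Sox3, Foxd3 and Grhl2 and the highest for Fgf5, Zic2 and Zic5. The ratio of the highest to the lowest control was 1.04 for Pou3f1, 1.16 for Zic5, 1.48 for Zic2, 1.57 for Fgf5 and 2.44 to 3.55 for Grhl2, Sall2, Sox3 and Foxd3. For Otx2 it was 14.3, from 13 counts against 1.

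**Figure D2:**
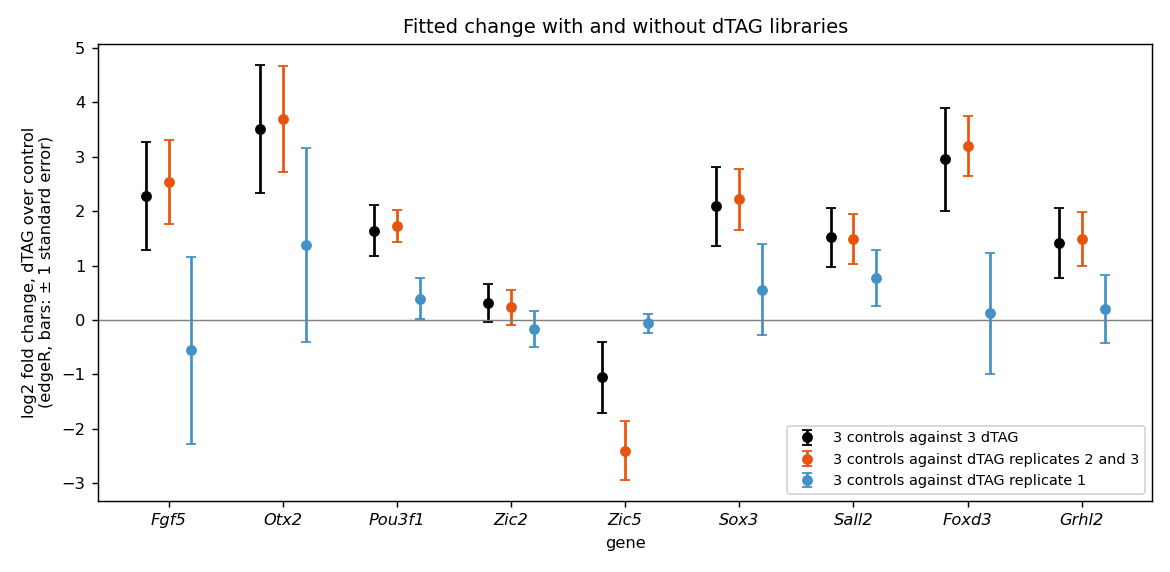
Fitted log2 fold change of dTAG over control for each gene (points) with 1 standard error on either side (bars), for all 6 libraries (black), without dTAG replicate 1 (orange) and for dTAG replicate 1 alone against the controls (blue). The black and orange points are positive for 8 genes, Zic5 lies at -1.05 and -2.40, and the blue points lie between -0.56 and 1.38.

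Zic2 and Zic5 lay on opposite sides of the controls in dTAG replicates 2 and 3. Both encode zinc finger factors of epiblast and neural tissue, and they lie next to each other on chromosome 14, Zic5 at chr14:122459160-122465658 and Zic2 at chr14:122475384-122480328 (RefSeq, GRCm38.p6), separated by 9725 bases and pointing away from each other. Zic5 stood at 74.0, 85.9 and 78.5 CPM in control replicates 1, 2 and 3 (mean 79.5 ± 6.0 CPM; SD, n = 3), from 1054 to 1344 counts. In dTAG replicate 1 it had 81.0 CPM from 1046 counts, within the controls, and in dTAG replicates 2 and 3 it had 27.7 and 58.5 CPM, from 59 and 106 counts, below every control. The log2 fold change was -1.05 (SE 0.65, edgeR adjusted p = 0.370) over all libraries, -0.06 (SE 0.17, edgeR adjusted p = 0.998) against dTAG replicate 1 alone and -2.40 (SE 0.54, edgeR adjusted p = 0.00378) without it. Both dTAG replicates 2 and 3 were below every control for 12.6% of all genes with a count. Of the 9 genes, Zic5 had the smallest standard error against dTAG replicate 1 alone, and its level there was 1.02 times the control mean.

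Zic2 had 15.0, 22.2 and 17.9 CPM in the controls, from 214, 348 and 252 counts, and 17.4, 41.7 and 80.0 CPM in the dTAG libraries, from 225, 89 and 145 counts. dTAG replicate 1 lay within the controls and the other dTAG libraries above them. Its log2 fold change was 0.32 (SE 0.35, edgeR adjusted p = 0.525), and among the members it alone was not called without dTAG replicate 1 (0.23, SE 0.32, edgeR adjusted p = 0.536). Its direction relative to the median of all genes was not stable: it was 0.16 above with TMM scaling and 0.21 above with library totals, but 0.45 below without dTAG replicate 1 and 0.98 below in DESeq2. Per count, Zic5 exceeded Zic2 by 3.86 to 4.92 times in the controls and 4.65 times in dTAG replicate 1, and the ratio was 0.663 and 0.731 in dTAG replicates 2 and 3. Per kilobase of gene span, control levels were 12.2 ± 0.92 CPM for Zic5 and 3.72 ± 0.73 CPM for Zic2 (SD, n = 3 each), so the order held after division by length and the groups of 3 values did not overlap. Other members with a span under 7 kb were lower on that scale in the controls: Pou3f1 at 3.42 ± 0.083, which overlapped Zic2, Sox3 at 1.13 ± 0.52 and Foxd3 at 0.714 ± 0.39 CPM per kb (SD, n = 3), of which the last pair overlapped each other. The order differed in dTAG replicate 2, with Pou3f1 at 19.2, Foxd3 at 9.88, Zic2 at 8.44, Sox3 at 8.18 and Zic5 at 4.26 CPM per kb. In dTAG replicate 3 Pou3f1 was again the highest and Zic5 the lowest, with Pou3f1 at 47.1, Foxd3 at 29.3, Sox3 at 23.5, Zic2 at 16.2 and Zic5 at 9.0 CPM per kb.

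**Figure D3:**
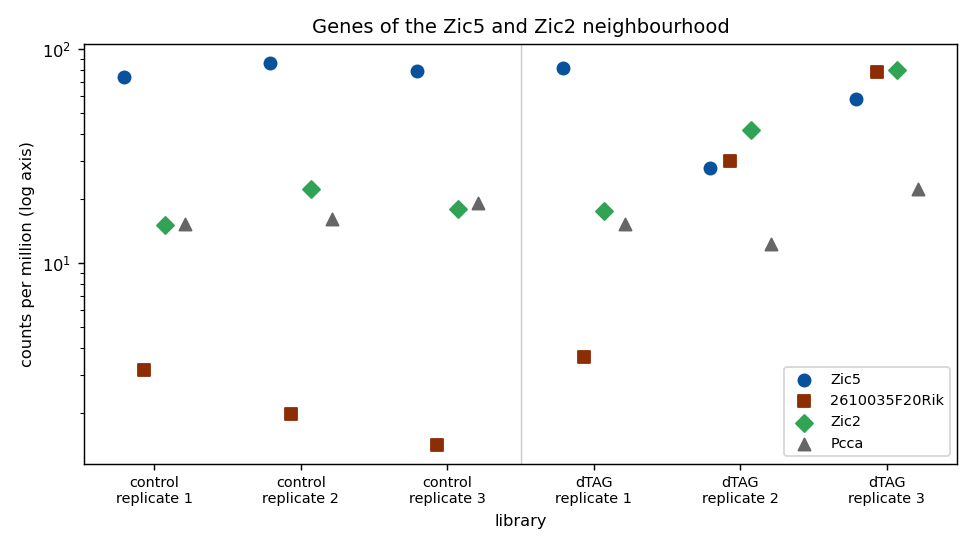
Level of Zic5, Zic2, the noncoding RNA gene between them (2610035F20Rik) and the next coding gene (Pcca) in each library, in CPM on a log axis. Zic5 is the highest of the 4 in the controls and dTAG replicate 1, and in dTAG replicates 2 and 3 it is below Zic2, with 2610035F20Rik at 30.0 and 78.4.

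The neighbours of the pair, looked up after the values of Zic5 and Zic2 were seen, did not behave alike. The span of the long noncoding RNA gene 2610035F20Rik lies just before the start of Zic2. This gene had 3.16, 1.98 and 1.42 CPM among controls, against 3.64, 30.0 and 78.4 CPM with dTAG. Pcca, a mitochondrial carboxylase subunit gene on the far side of Zic2, had 15.2, 16.0 and 19.2 CPM and, with dTAG, 15.2, 12.2 and 22.1 CPM: within the controls, below them and above them. In dTAG replicate 3 the RNA gene and Zic2 therefore stood at 78.4 and 80.0 CPM, while in the controls Zic2 had the higher count in each library. The RefSeq spans of these genes do not overlap. Whether counting used the strand is not given in the sources used here. Reads of any transcripts that overlap beyond these spans could therefore not be told apart.

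Other formative and primed genes had fold changes of both signs. Of 20 further genes of this kind, all tested, 0 passed over all 6 libraries, 13 had a positive and 7 a negative fold change, and the median log2 fold change was 0.64 against 0.16 for all tested genes. Without dTAG replicate 1, 7 of the 20 were called higher and 0 lower, where 40% and 19.8% of all tested genes were, and their median was 0.63 against 0.68. In DESeq2 it was 0.57 against 1.24, so the list did not lie above all genes under these settings. The most abundant was Tcf7l1, a Wnt-pathway repressor that promotes the exit from the naive state, at 84.5 to 92.8 CPM among controls, against 91.5, 89.6 and 67.9 CPM with dTAG. Dnmt3a, a DNA methyltransferase that is raised after implantation, had 52.6 to 70.4 CPM in the controls and 50.8, 106 and 163 CPM, and the keratin gene Krt18 had 47.3 to 74.2 CPM and 66.8, 63.8 and 76.1 CPM. Above every control in dTAG replicates 1, 2 and 3 were 4, 17 and 19 of the 20, where 31.9%, 67.1% and 79.3% of all genes with a count were. In dTAG replicate 1, 7 of the 20 were below every control, where 12.8% of all genes with a count were.

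Paralogues of the members had fold changes of both signs as well. Of 20, 18 passed the filter on low counts and 0 passed the test. There were 13 positive and 5 negative fold changes, with a median of 1.27 against 0.16 for all tested genes. In dTAG replicates 2 and 3, 17 of the 20 were above every control in each, where 67.1% and 79.3% of all genes were. The 3 below were Fgf4, Sox2 and Sall4, all with over 150 CPM in the controls. Pou3f3, a neural POU factor, had 12.4 to 17.0 CPM among controls, against 16.3, 36.1 and 77.8 CPM with dTAG. Foxd1, a forkhead factor of kidney stroma, had 6.95 to 8.56 CPM and 6.59, 39.9 and 126 CPM, Grhl3 had 17.0 to 21.8 CPM and 21.1, 23.9 and 35.9 CPM, and the retinal factor Crx had 4.22 to 5.75 CPM and 5.04, 7.51 and 46.9 CPM.

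Most naive genes lay on the other side of the controls in dTAG replicates 2 and 3. All 16 had a negative fold change over the 6 libraries, with a median of -0.90 against 0.16 for all tested genes, and 0 passed the test. In dTAG replicates 2 and 3, 12 of 16 were below every control, where 16% and 15.9% of all genes with a count were. Above every control were 1 and 2 of 16, where 67.1% and 79.3% of all genes were. The 12 that were below had control means of 70.7 CPM or more, and the rest had 12.2 to 37.5 CPM. Whether the contrast with the formative genes follows control level was not tested. The 3 most abundant were Tfcp2l1, Tet2 and Fbxo15: Tfcp2l1, a transcription factor of the ground state, had 401 to 464 CPM in the controls and 478, 323 and 114 CPM with dTAG, and Fbxo15 had 209 to 267 CPM and 239.9, 150 and 14.9 CPM. Their summed level was 2385 to 2621 CPM among controls, against 2619, 1886 and 736 CPM with dTAG. Against dTAG replicate 1 alone, the median log2 fold changes were -0.06 for the naive genes, 0.20 for the 9 formative and primed genes, -0.24 for the 20 further ones and -0.02 for all 18143 tested genes. In that comparison edgeR called 0 of 9 members and 16 genes in all (0.0882%; 0.0606% higher and 0.0276% lower), and at an unadjusted p under 0.05, 0 members and 5.74% of genes; the lone dTAG library was taken to have the spread of the control group.

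Markers of other cell types stood as follows in the same libraries. Of 12 neural markers, 7, 11 and 11 were above every control in dTAG replicates 1, 2 and 3, where 31.9%, 67.1% and 79.3% of all genes were, and their summed level was 90.8 to 100.1 CPM among controls, against 91.0, 228 and 567 CPM with dTAG. Its most abundant genes were Stmn2, a neuronal tubulin regulator, with 31.2 to 40.7 CPM in the controls and 26.5, 28.2 and 14.3 CPM with dTAG, then the neural progenitor filament gene Nes and the tubulin gene Tubb3. Neurod1, a neuronal factor, was at 0 in all controls. Of 10 feeder fibroblast markers, 2, 10 and 10 were above every control, beside the same shares of all genes, with summed levels of 29.3 to 42.9 CPM among controls, against 43.3, 125 and 389.5 CPM with dTAG, led by Pdgfrb, Thy1 and Col1a1, with the collagen gene Col3a1 and S100a4 at 0 in all controls. The 11 epithelial markers, led by Cdh1, Epcam and Krt18, summed to 522 to 593 CPM in the controls and 547, 517 and 440 CPM. From dTAG replicate 2 to dTAG replicate 3 the mean of the receptor genes was 3.38 times higher, and the level of the 9 members was 1.92 (Zic2) to 5.97 (Otx2) times higher, with Zic5 at 2.11. The part of these counts in the values of the members was not tested.

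**Figure D4:**
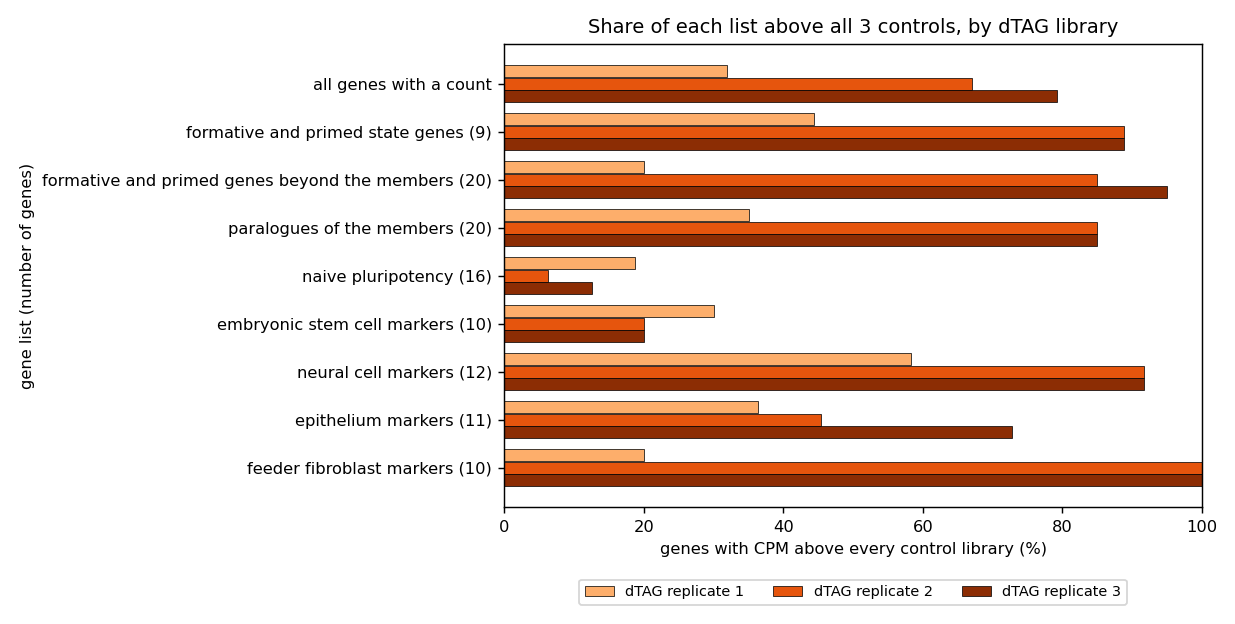
Percentage of the genes of each list with a CPM above all 3 controls, one bar for each dTAG library, with all genes that have a count at the top. The 9 formative and primed state genes stand at 4, 8 and 8 of 9 for dTAG replicates 1, 2 and 3, beside 31.9%, 67.1% and 79.3% of all genes.

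The genes whose levels were most like those of the members came from many functions. Likeness was the Euclidean distance of log2(CPM + 1) over the 6 libraries, among named genes other than the members, predicted genes (Gm, LOC, Rik) and pseudogenes, and is a description only, since dTAG replicates 2 and 3 set most of it. The nearest genes were Trim60 and Ccr4 for Fgf5 (distances 0.284 and 0.461), Cx3cr1 and Ankrd55 for Otx2 (0.336 and 0.424), Map3k6 and Whrn for Pou3f1 (0.345 and 0.397) and Med26 and Jak3 for Zic2 (0.305 and 0.343). For Sox3 they were Rab26 and Kantr (0.488 and 0.555), for Sall2 Tgm1 and Zfp882 (0.381 and 0.496) and for Foxd3 Slit3 and Mindy4 (0.449 and 0.454). Vav1 was among the nearest to Grhl2 (0.337). Zic5 had the most distant neighbours, Cdc23 and Ss18 (0.718 and 0.772). Ccr4 and Cx3cr1 are chemokine receptors of immune cells, and Cx3cr1 had 0.128 to 1.19 CPM among controls, against 1.4, 7.51 and 34.2 CPM with dTAG.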

How the data were processed

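RNA-seq of 3 control and 3 dTAG libraries was used, and 83 of the 89 samples are not analysed here. Values are raw counts in whole numbers, as the authors deposited them. The tools named, per the submitters' processing notes, are limma, edgeR, featureCounts and STAR 2.7.2b, on mm10, with no roles or annotation given. The 903 rows without a symbol, 2.20% to 2.37% of counts in the controls and 2.33%, 6.67% and 14.6% in dTAG replicates 1, 2 and 3, entered neither library sizes nor tests. The table held 0 ERCC rows, so total RNA per cell was not measured. Titles gave the groups; separate cultures are not stated, so each p-value reflects only how these libraries vary, which may be technical.

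Tests used edgeR 4.0.16 in R 4.3.3 (glmQLFit, glmQLFTest, group alone, TMM, filterByExpr with a minimum count of 10 and total of 15), Benjamini-Hochberg adjustment and a threshold of 0.05, with standard errors from the F statistic; all 9 members passed the filter. The scripts were tested on simulated data with less spread than these libraries, whose common dispersion was 0.424. All simulated libraries shared the control profile apart from the planted changes, so unequal dTAG libraries were not covered. Alternatives were RLE, library totals, other filters, DESeq2 1.42.0, limma-voom (limma 3.58.1), a replicate block and left-out libraries. Members, lists and alternatives were chosen with earlier results of these data known. Named genes are the members, the 3 most abundant of each list, the most abundant paralogue of each member and the 2 nearest in level; Neurod1, Col3a1, S100a4, 2610035F20Rik and Pcca were named after their values were seen. A paralogue and a gene near in level that this rule names are not reported here. RefSeq symbols of GRCm38.p6 matched all 9 members in the gene table, which gave spans, and 5 in the promoter table.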

Additional observations from a re-analysis of the deposited data

Results flagged for a closer look

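Counts in rows of the table without a gene symbol, which entered no comparison, took 6.67% of dTAG replicate 2 and 14.6% of dTAG replicate 3, above the highest control at 2.37%.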

How the results depend on the processing

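The count of called genes, 0 over all 6 libraries with edgeR, was 1398 without the filter on low counts, 5086 with DESeq2, 16 for the controls against dTAG replicate 1 alone and 13 with the replicate block; it ranged from 0 to 13222 when each library was left out in turn, the 13222 being without dTAG replicate 1. Members called numbered 4 with DESeq2 (Otx2, Pou3f1, Sox3 and Foxd3), ranged from 0 to 8 with a library left out, 8 being without dTAG replicate 1, and were 0 under every other alternative. The log2 fold change of Zic2 ranged from -0.03, without control replicate 1, to 0.30 with a library left out, and turned to -0.17 against dTAG replicate 1 alone, and that of Fgf5 to -0.56 in the latter; the cause was not tested. With library totals Zic2 moved from 0.32 to 1.33, Zic5 from -1.05 to -0.50 and Fgf5 from 2.28 to 3.50, and with limma-voom Fgf5 moved to 0.98, Foxd3 from 2.95 to 1.74 and Zic5 to -1.59, with no call changed. Fgf5 was not tested when 1 CPM was required in every library of either group. Same-numbered control and dTAG libraries had correlations of deviations of 0.032, -0.027 and 0.032. The dTAG libraries differed strongly among themselves, with TMM factors of 0.789, 1.23 and 2.31. A shared batch could be hidden by that difference, so these correlations cannot decide whether the numbers pair the samples. The block called 0 members. Depth limits the low members in dTAG replicates 2 and 3, where a count of 0 would allow 1.41 and 1.66 CPM.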
